A study of Rattus norvegicus with 3 samples.

Results

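The platelet-derived growth factor (PDGF) family was examined in primary cardiomyocytes of the rat, obtained by enzyme digestion from fetuses of the outbred Wistar strain. The genes were the ligand genes Pdgfa, Pdgfb, Pdgfc and Pdgfd and the receptor genes Pdgfra and Pdgfrb, taken by name. The family was chosen with earlier results of these data known. Probe sets annotated with 1 of these symbols alone were taken, and 7 were found among 31099. They covered 5 of the 6 genes, 3 of the 4 ligands and both receptors, and Pdgfb, which had no such probe set, was not analysed here. The cells had been plated for 48 hours and were then kept for 24 hours in fresh medium, in medium conditioned by skeletal myoblasts or in medium conditioned by cardiac fibroblasts. The study's title names c-Met and EGFR as receptors of a paracrine protection against oxidative stress, and PDGF receptors are a further route by which secreted factors reach heart cells. How long the media were conditioned is not given in the sources used here.

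PDGFs are secreted dimers that bind and pair their receptors, which are tyrosine kinases closely related to those for stem cell factor and colony stimulating factor. The A chain binds the alpha receptor only, the B chain binds both receptors, the C chain acts mainly through the alpha receptor and the D chain mainly through the beta receptor. A and B chains are cut to their mature form inside the cell, whereas C and D chains are secreted in a latent form and activated outside it by plasminogen activators and related proteases. In the heart the alpha receptor is a marker of fibroblasts and their epicardial precursors, and the beta receptor of pericytes and vascular smooth muscle.

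With 1 array for each medium there is no replicate, and hence no error or p-value for any difference. Their number limits the precision. Values are log2 expression relative to the median of the 3 arrays for the same probe set, with blanks read here as 0. Where 1 array is blank, it appears to be the median array. Of 31099 probe sets, 8002 had a value on 1 array only and 5980 on none, and what those blanks mean is not known. Absolute levels were lost by the centring. It is therefore unknown how strongly any PDGF gene was expressed, levels cannot be compared between genes, and the labelled cell type cannot be checked by whether its markers were present. A difference of 1 on the log2 scale is 2-fold. The measured guide to technical error was 42 probe sets for transcripts that are meant to be spiked equally into all samples. Their largest difference in size was 0.66 between myoblast and fresh medium, 0.68 between fibroblast and fresh medium and 1.02 between the conditioned media. The controls were of 2 kinds that were offset from each other. The 18 hybridisation controls, added after labelling, had medians of 0.10, 0.40 and -0.28 for myoblast minus fresh, fibroblast minus fresh and myoblast minus fibroblast medium, and the 24 poly-A controls, added to the RNA, had medians of 0.34, -0.27 and 0.58. In these bulk cultures, fewer cells of a type and less RNA per cell cannot be told apart.

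Pdgfra, the gene of the alpha receptor, was lower in both conditioned media than in fresh medium and was the only measured PDGF gene past 2-fold in either. Its single probe set, 1370941_at, read 1.42 in fresh medium, 0 in myoblast medium (the blank cell) and -0.06 in fibroblast medium. The fresh medium array stood apart and the conditioned media lay close together. The difference was -1.42 (2.68-fold lower) for myoblast medium and -1.48 (2.78-fold lower) for fibroblast medium, beyond every added control in both cases. Between the conditioned media the difference was 0.06. Both differences from fresh medium share the same fresh medium array, so they are not separate observations of it.

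Against all 14218 genes with a probe set, 1 of 5 PDGF genes at least 2-fold lower compares with 0.844% of genes in myoblast medium and 2.6% in fibroblast medium. Of the 14218, 1627 were blank on all arrays and enter as differences of 0. This makes the shares past 2-fold lower than among genes with a value. In myoblast medium, 36 genes (0.253%) had a difference as low as that of Pdgfra or lower, and in fibroblast medium 166 genes (1.17%) did. No PDGF gene was 2-fold higher in either conditioned medium, where 1.35% and 4.26% of all genes were. None passed 2-fold between the conditioned media, against 6.06% of all genes in either direction. The median difference of the 5 genes was -0.07 for myoblast minus fresh medium, 0.00 for fibroblast minus fresh medium and -0.26 for myoblast minus fibroblast medium, and the median over all genes was 0.00 in each.

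**Figure D1:**
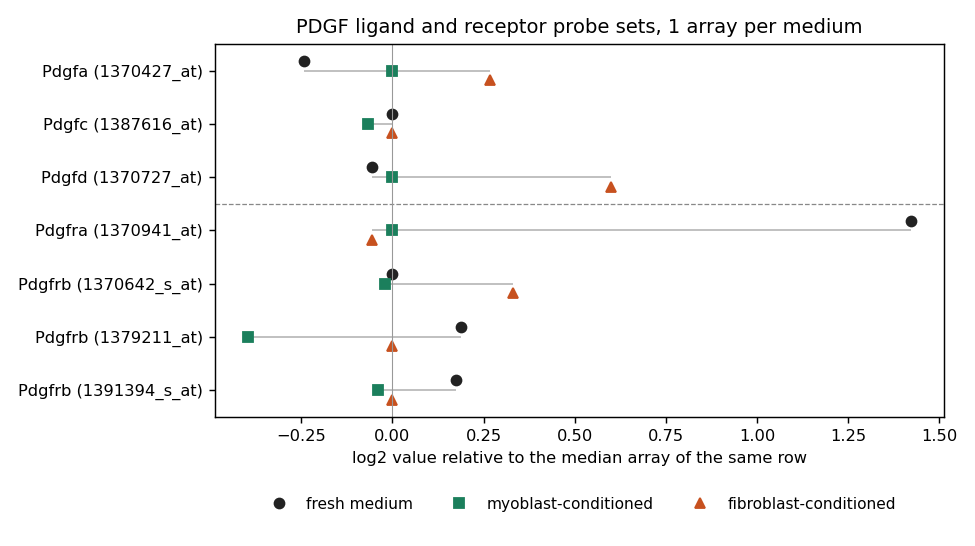
Values of the 7 PDGF probe sets on the 3 arrays, as log2 relative to the median array of the same probe set (horizontal axis), with ligands above and receptors below the dashed line. Circles are fresh medium, squares myoblast-conditioned and triangles fibroblast-conditioned medium, and grey lines span the 3 values. Pdgfra in fresh medium, at 1.42, lies apart from all other points, which are between -0.40 and 0.60.

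Pdgfrb, the gene of the beta receptor, had 3 probe sets that differed by less than 2-fold in every comparison and disagreed in sign for fibroblast minus fresh medium. Probe set 1370642_s_at read 0 in fresh medium (blank), -0.02 in myoblast medium and 0.33 in fibroblast medium, so fibroblast medium was highest. Probe set 1379211_at read 0.19 in fresh medium, -0.40 in myoblast medium and 0 in fibroblast medium (blank), so fresh medium was highest. Probe set 1391394_s_at read 0.17, -0.04 and 0 in the same order and also had fresh medium highest. All 3 placed myoblast medium lowest.

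For myoblast minus fresh medium the Pdgfrb probe sets gave -0.02, -0.58 and -0.21, with a mean of -0.27. For fibroblast minus fresh medium they gave 0.33, -0.19 and -0.17, with a mean of -0.01, so this mean hides probe sets of opposite sign. None of the 6 differences exceeded the largest added control in size. The probe sets 1379211_at and 1391394_s_at are annotated to the same sequence record and are not independent, and the suffix _s_at marks probe sets that may detect more than 1 transcript. Among the 1037 genes with 3 probe sets, 36.7% had probe sets at least as far apart as those of Pdgfrb for fibroblast minus fresh medium, and 12.2% for myoblast minus fresh medium.

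Pdgfa, which encodes the ligand specific to the alpha receptor, was read by 1370427_at at -0.24 in fresh medium, 0 in myoblast medium (blank) and 0.27 in fibroblast medium. Fresh medium was lowest, the reverse of its receptor. The difference from fresh medium was 0.24 (1.18-fold) in myoblast medium and 0.51 (1.42-fold) in fibroblast medium, both within the range of the added controls. A difference as high or higher was seen in 13.5% and 10.8% of all genes.

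Pdgfd, whose product acts mainly on the beta receptor, was read by 1370727_at at -0.06 in fresh medium, 0 in myoblast medium (blank) and 0.60 in fibroblast medium. Fibroblast medium stood above the other arrays, which lay close together. The difference was 0.06 for myoblast minus fresh medium and 0.66 (1.58-fold) for fibroblast minus fresh medium, above the highest added control in that direction, 0.59, and smaller in size than the lowest, -0.68. In that comparison 7.87% of genes were as high or higher. Myoblast medium was lower than fibroblast medium by -0.60, the largest PDGF difference between the conditioned media.

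Pdgfc, whose product acts mainly on the alpha receptor, had a value on 1 array only. Probe set 1387616_at read -0.07 in myoblast medium and was blank in fresh and fibroblast medium, tied only because blanks were read as 0. Its differences of -0.07, 0.00 and -0.07 were the smallest in size of the measured ligands for fibroblast minus fresh medium and between the conditioned media. In myoblast against fresh medium Pdgfd, at 0.06, was smaller still.

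In order of size for myoblast minus fresh medium, Pdgfra (-1.42) was followed by Pdgfrb (-0.27), Pdgfa (0.24), Pdgfc (-0.07) and Pdgfd (0.06). For fibroblast minus fresh medium the order was Pdgfra (-1.48), Pdgfd (0.66), Pdgfa (0.51), Pdgfrb (-0.01) and Pdgfc (0.00). The genes other than Pdgfra differed by less in size than the largest added control of the same comparison, and with 1 array a medium their order among themselves is not settled. By sign, Pdgfrb and Pdgfc lay below the lowest control for myoblast minus fresh medium, -0.01, and Pdgfd above the highest for fibroblast minus fresh medium, 0.59.

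**Figure D2:**
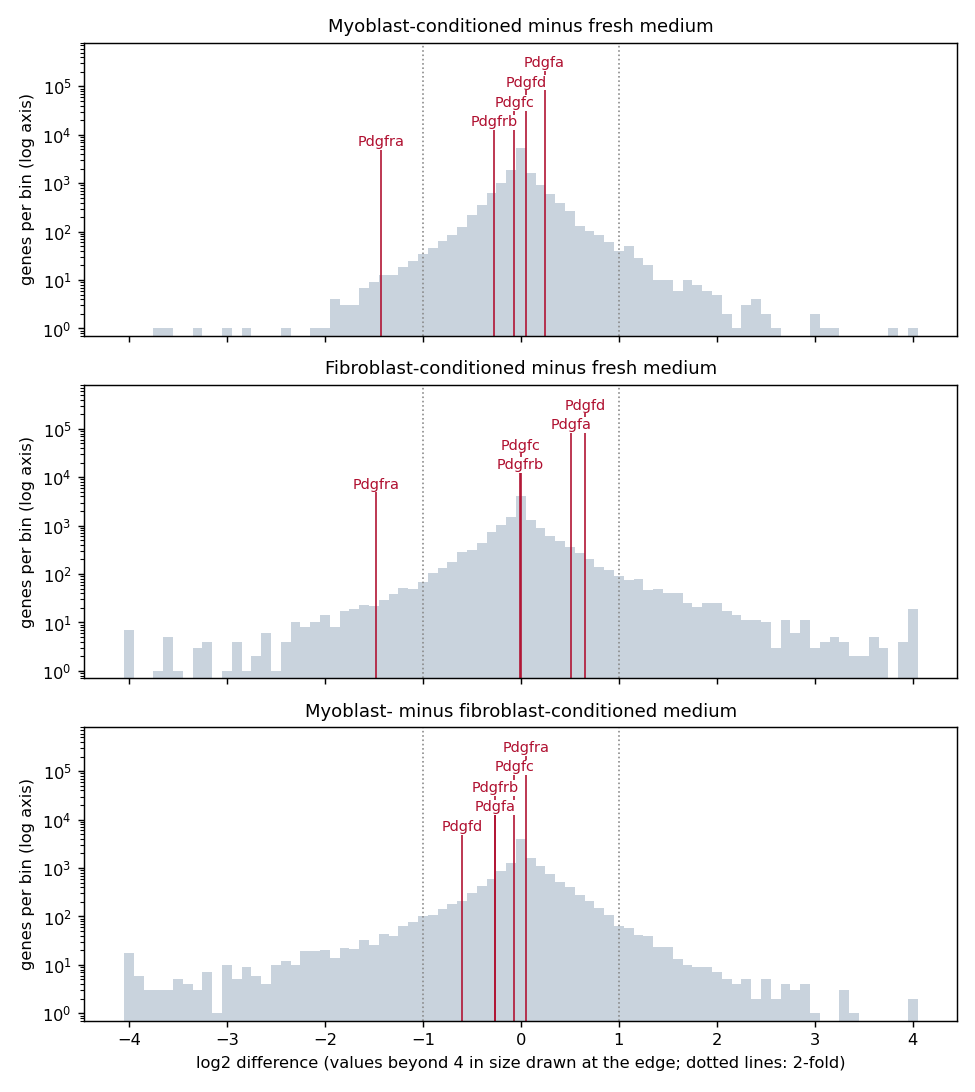
Distribution of log2 differences over 14218 genes (grey, genes per 0.1-wide bin on a log axis) for the 3 comparisons, with the 5 measured PDGF genes as red lines and 2-fold as dotted lines. Pdgfra lies beyond the 2-fold line at -1.42 and -1.48 in the comparisons with fresh medium and near the centre, at 0.06, between the conditioned media, and the other PDGF genes lie inside the 2-fold lines in each.

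Fresh medium was the highest array for Pdgfra and the lowest for Pdgfa, the latter with differences within the range of the added controls. The sequences upstream of these genes are shown because they are those of the alpha receptor and its specific ligand. Each is the 250 bases before the gene start in RefSeq annotation of rat assembly GRCr8, 5′ to 3′ on the gene's strand. Pdgfra is on chr14:33408517-33408766, minus strand, and Pdgfa on chr12:20759116-20759365, plus strand. Capitals mark matches on either strand to any of 5 motifs. Of these, GGGCGG is the GC box, CCAAT the box bound by NF-Y, TATAAA the core promoter box and GCGNGGGCG the Egr site. The remaining motif, TGANTCA, is a loose AP-1 pattern with any base at its centre, where the AP-1 consensus has C or G. None of the matches printed overlap.
Pdgfra: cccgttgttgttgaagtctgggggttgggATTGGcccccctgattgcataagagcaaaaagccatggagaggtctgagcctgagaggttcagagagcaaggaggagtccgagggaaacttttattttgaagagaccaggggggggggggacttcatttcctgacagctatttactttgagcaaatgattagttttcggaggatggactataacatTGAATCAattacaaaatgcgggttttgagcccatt
Pdgfa: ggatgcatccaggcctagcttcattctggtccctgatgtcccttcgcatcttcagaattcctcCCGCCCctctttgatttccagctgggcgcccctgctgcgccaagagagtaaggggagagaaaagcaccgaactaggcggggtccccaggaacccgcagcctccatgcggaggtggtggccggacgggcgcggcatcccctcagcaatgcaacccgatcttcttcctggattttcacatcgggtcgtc
The Pdgfra window held 1 match to the CCAAT box, on the other strand, and 1 to the loose AP-1 pattern. The latter, TGAATCA, has A at its centre and is not a match to the AP-1 consensus. The Pdgfa window held 1 GC box match, also on the other strand, as did those of Pdgfb and Pdgfd, and the Pdgfc window held none of the motifs. Among 33469 upstream windows of this length, 34.0% held the CCAAT box, 6.34% the loose AP-1 pattern and 30.5% a GC box. The core promoter box was in 12.9% and the Egr site in 4.29%. Pdgfra had the lowest G and C content of the 5 PDGF windows found, 47.2% against 56% to 63.6%, with a median of 51.2% over all windows. These letter matches are a description, and the arrays carry no measurement of factor binding.

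By Euclidean distance over the 3 arrays, with each gene centred on its mean, the genes most like Pdgfra were Ddx60, Kctd12 and Acss3, at distances of 0.07, 0.08 and 0.10. Ddx60, an interferon-induced helicase gene, differed from fresh medium by -1.52 in both conditioned media, where its cells were blank and read as 0. The tie of those media was not measured. Kctd12, a gene of a GABA-B receptor auxiliary subunit, differed from fresh medium by -1.50 in myoblast and -1.43 in fibroblast medium. Acss3, an acyl-CoA synthetase gene, differed by -1.29 and -1.39. Likeness over 3 arrays is a weak description.

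For each list below, the shares of all genes past 2-fold serve as the background. These were 1.35% higher and 0.844% lower in myoblast medium, and 4.26% and 2.6% in fibroblast medium. Fibroblast markers other than Pdgfra differed in both directions. Of 24 measured, 3 were at least 2-fold lower and 0 higher in myoblast medium (median -0.10), and 2 were lower and 4 higher in fibroblast medium (median 0.20). Among those with a value above 0, fresh medium was the highest array for 9, fibroblast medium for 13 and myoblast medium for 0. Left out of this count were Dpep1 and Ly6c, whose highest value was 0. Dpep1 was highest in fresh medium, and Ly6c was tied at 0 in fresh and myoblast medium. The list's mean value was 0.08 in fresh, -0.12 in myoblast and 0.42 in fibroblast medium, so the order of this mean differs from that of Pdgfra.

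The fibroblast genes named first, Islr, Fbln1 and Dpt, had the lowest differences of the list for myoblast minus fresh medium. That fresh medium was their highest array largely follows from the choice. Islr, an immunoglobulin-superfamily gene of mesenchymal cells, differed by -2.13 in myoblast and -1.83 in fibroblast medium. Fbln1, a matrix glycoprotein gene, differed by -1.03 and -2.07, and Dpt, which encodes dermatopontin, by -1.26 and -0.70. Dcn was at -0.12 and -0.85, and so was lower than Dpt in fibroblast medium. Lum was at -0.93 and -0.16. The main fibrillar collagen genes differed little, with Col1a1 at -0.04 and 0.24, Col1a2 at -0.09 and 0.29 and Col3a1 at -0.13 and -0.08. Tcf21, a transcription factor of cardiac fibroblasts and epicardium, was at 0.18 and 0.54. Highest in fibroblast medium were Mfap5, a microfibril gene, at 3.88, Lox, which crosslinks collagen, at 2.89, Fbln2 at 1.81 and Thy1 at 1.69. In myoblast medium Lox was at 0.84 and Ddr2, a collagen receptor gene, at 0.69.

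Pericyte markers, which share their cell type with Pdgfrb, mostly lay near 0. In myoblast medium 2 of 13 were at least 2-fold lower, Kcnj8, a potassium channel subunit, at -1.13 and Rgs5, a regulator of G protein signalling, at -1.06, and 0 were higher. In fibroblast medium 1 was lower, Abcc9, the partner subunit of that channel, at -1.33, and Rgs5 was at 0.15. The list medians were -0.04 and 0.00. Cspg4, which encodes the pericyte proteoglycan NG2, was at -0.04 and 0.51, and Notch3 was blank on all arrays. Of 10 smooth muscle markers, 3 were at least 2-fold higher in myoblast medium (Cnn1 at 3.02, Acta2 at 1.98, Tagln at 1.33; median 0.19) and 5 in fibroblast medium (median 0.85), including Actg2 at 3.58, and 0 were 2-fold lower in either.

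**Figure D3:**
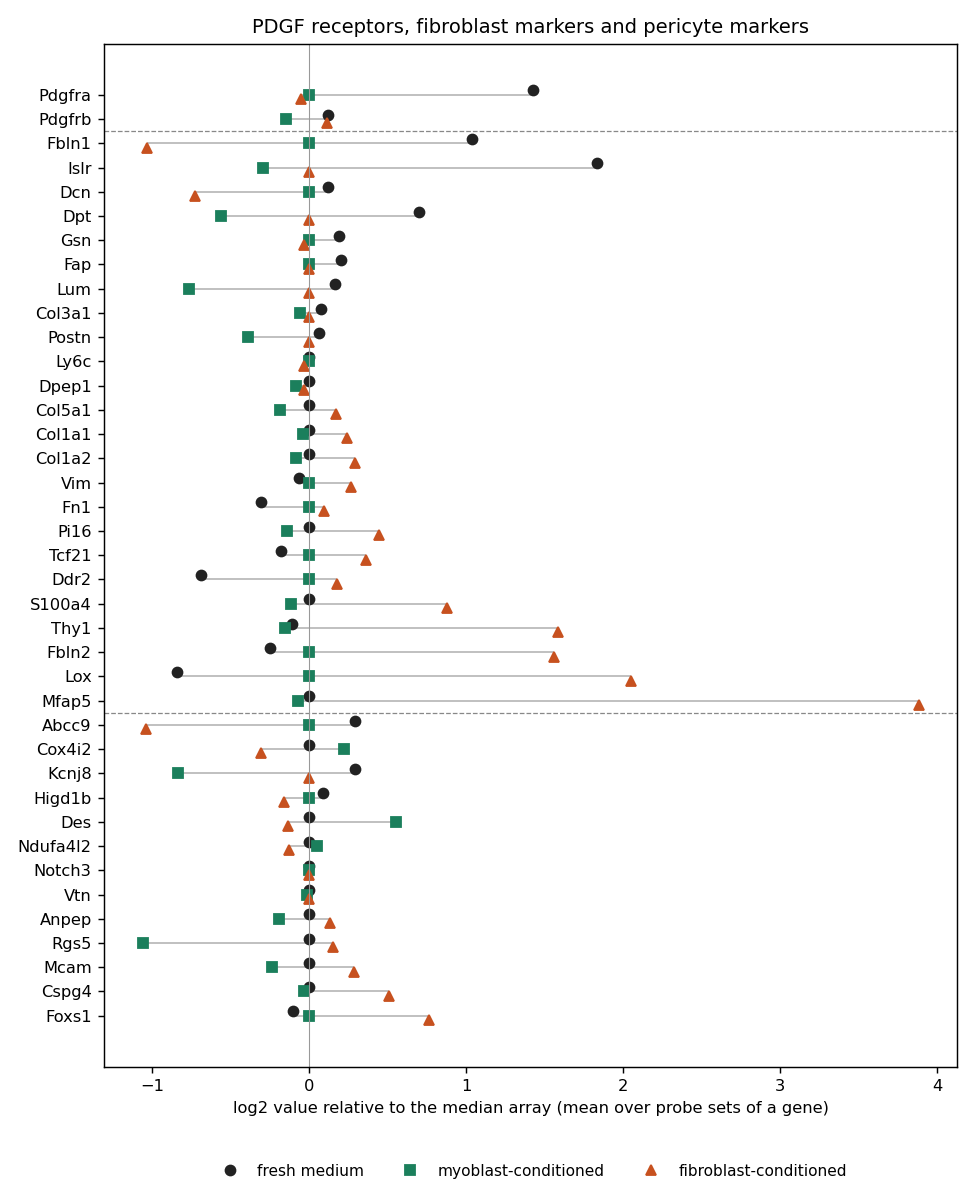
Gene values on the 3 arrays (log2 relative to the median array, mean over probe sets) for the PDGF receptors (top), 24 fibroblast markers (middle) and 13 pericyte markers (bottom), each list ordered by fibroblast minus fresh medium. Symbols are as labelled and grey lines span the arrays. Islr and Fbln1, the markers lowest in fibroblast minus fresh medium, are highest in fresh medium, at 1.83 and 1.03. Mfap5, Lox, Fbln2 and Thy1 are highest in fibroblast medium.

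Markers of other cell types differed between the media as well. Among endothelial markers, 5 of the 16 measured were 2-fold lower or more in myoblast medium (median -0.71) and 11 in fibroblast medium (median -2.02), and 0 were 2-fold higher in either. Eng, a TGF-beta co-receptor gene, was at 0.28 and 0.83, and Flt1, a VEGF receptor gene, at -0.28 and 0.58. Their mean value was 0.73 in fresh, -0.02 in myoblast and -1.40 in fibroblast medium. Of 18 macrophage markers, 16 were at least 2-fold higher in fibroblast medium (median 2.28) and 1 in myoblast medium (median -0.46), and 0 were 2-fold lower in either. Of 17 cardiomyocyte markers, 6 were at least 2-fold lower and 0 higher in fibroblast medium (median -0.73). In myoblast medium 1 was lower, the myoglobin gene Mb at -1.42, and 1 higher, the slow myosin gene Myh7 at 1.43 (median -0.16). Platelet and megakaryocyte markers, a blood source of PDGF, had 0 of 7 past 2-fold in either comparison with fresh medium. This says little, since 11 were listed, 2 of the 7 were blank on all arrays and only 3 had values on 2 arrays. The part of these cell types in the Pdgfra difference was not tested.

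Among genes that process PDGFs or hold the processing in check, values spread widely around medians of -0.08 for myoblast minus fresh medium and 0.15 for fibroblast minus fresh medium. Of 11 measured, 2 were at least 2-fold higher and 1 lower in myoblast medium, and 2 higher and 0 lower in fibroblast medium. Furin, a convertase that cuts the A and B chains, was at -0.08 and 0.00, the latter between blank cells read as 0. Its relative Pcsk6 was at 1.95 and 2.29, lowest in fresh medium. Plat, the tissue plasminogen activator that activates the C chain, was at 0.11 and 0.15. Plau, the urokinase that activates the D chain, was at -1.08 in myoblast and 0.15 in fibroblast medium, and was at -1.23 for myoblast minus fibroblast medium. St14, matriptase, which also cuts the D chain, was at -0.16 and 0.43. Serpinb2, an inhibitor of plasminogen activators, was at 2.05 and 4.35, and the urokinase receptor gene Plaur at 0.15 and 0.74.

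The next list held genes of PDGF-binding proteins and of membrane proteins that act with the receptors. Of 10 measured, 3 were at least 2-fold higher and 0 lower in fibroblast medium (median 0.56), and 0 passed 2-fold in myoblast medium (median 0.11). The 3 were Cd44, the hyaluronan receptor, at 1.89, Nrp2, a neuropilin, at 1.85 and Itgav, an integrin subunit, at 1.31. Sparc, a matrix protein that binds the B chain, was at 0.61, and A2m, a plasma protein that also binds it, at 0.50. In myoblast medium A2m was highest of the list at 0.91, and the lowest were Itgb3 at -0.58 and Nrp1 at -0.57. Lrp1, an endocytic receptor that associates with the beta receptor, was at -0.10 and -0.18.

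**Figure D4:**
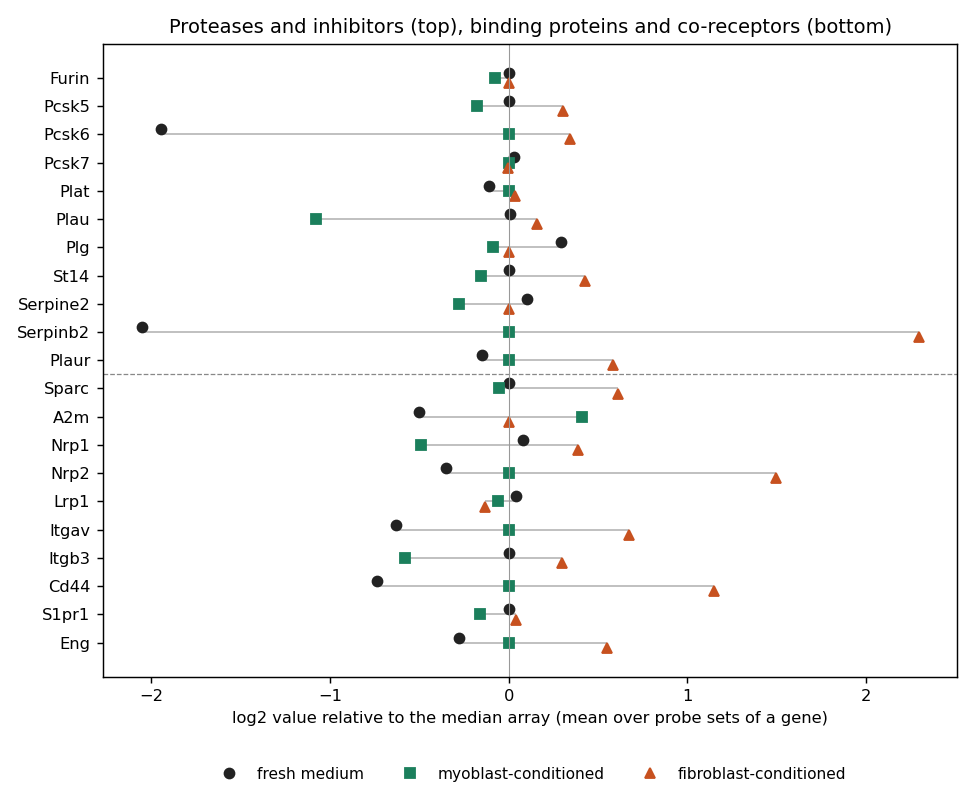
Gene values on the 3 arrays (log2 relative to the median array, mean over probe sets) for 11 genes of PDGF processing and its control (top) and 10 genes of PDGF-binding proteins and co-receptors (bottom). Symbols are as labelled and grey lines span the arrays. Serpinb2 and Pcsk6 are lowest in fresh medium, at -2.05 and -1.95, Plau is lowest in myoblast medium at -1.08, and fibroblast medium is the highest array for 8 of the 10 binding genes.

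The list of signal transducers held genes of proteins that bind activated PDGF receptors or act downstream of them. Of 27 measured, 0 passed 2-fold in myoblast medium (median -0.04, from -0.52 to 0.87), where 1.35% of all genes were higher and 0.844% lower. In fibroblast medium 1 was at least 2-fold higher and 0 lower, with a median of -0.04 and values from -0.64 to 1.07. It was Pik3r1, a regulatory subunit of PI 3-kinase, at 1.07, where 4.26% of all genes were 2-fold higher. Plcg1, the phospholipase C recruited by both receptors, was at -0.52 and -0.57, and Gab1, an adaptor, at -0.51 and -0.57. Map2k1, a MAP kinase kinase, was highest in myoblast medium at 0.87, and Stat3 was at 0.56 in fibroblast medium.

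Of 16 genes that restrain the receptors, 0 passed 2-fold in myoblast medium (median -0.02) and 1 was at least 2-fold higher in fibroblast medium (median 0.15). It was Ptprj, a receptor phosphatase that acts on the beta receptor, at 1.08, against -0.47 in myoblast medium. Of all genes, 4.26% were 2-fold higher in fibroblast medium. The ubiquitin ligase gene Cbl was at 0.02 and 0.22. The feedback inhibitor genes Spry1 and Spry4 were at -0.72 and -0.18 in myoblast medium and at -0.11 and 0.73 in fibroblast medium.

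Genes that PDGF is known to induce early, many of which respond to other stimuli too, were spread widely. Of 28 measured, 11 were at least 2-fold higher and 0 lower in fibroblast medium (median 0.67), and 1 was higher and 3 lower in myoblast medium (median 0.02). Those with the largest values in fibroblast medium were the chemokine genes Ccl7 at 4.11, Cxcl1 at 3.71 and Ccl2 at 3.58, and Ptgs2, which encodes cyclooxygenase-2, at 4.02. Growth-related members were smaller, with the matricellular gene Ccn2 at 2.70, Ier3 at 1.85 and Myc at 1.20. The transcription factor genes Klf10 (-0.75), Egr1 (-0.58) and Egr2 (-0.21) were below 0 there, and Fos was at 0.12. In myoblast medium Myc was higher, at 1.80, and Ccl2 (-1.21), Cxcl1 (-1.18) and Klf10 (-1.02) were lower. The macrophage markers given above were higher on the same fibroblast medium array, and their part in this list's values was not tested.

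**Figure D5:**
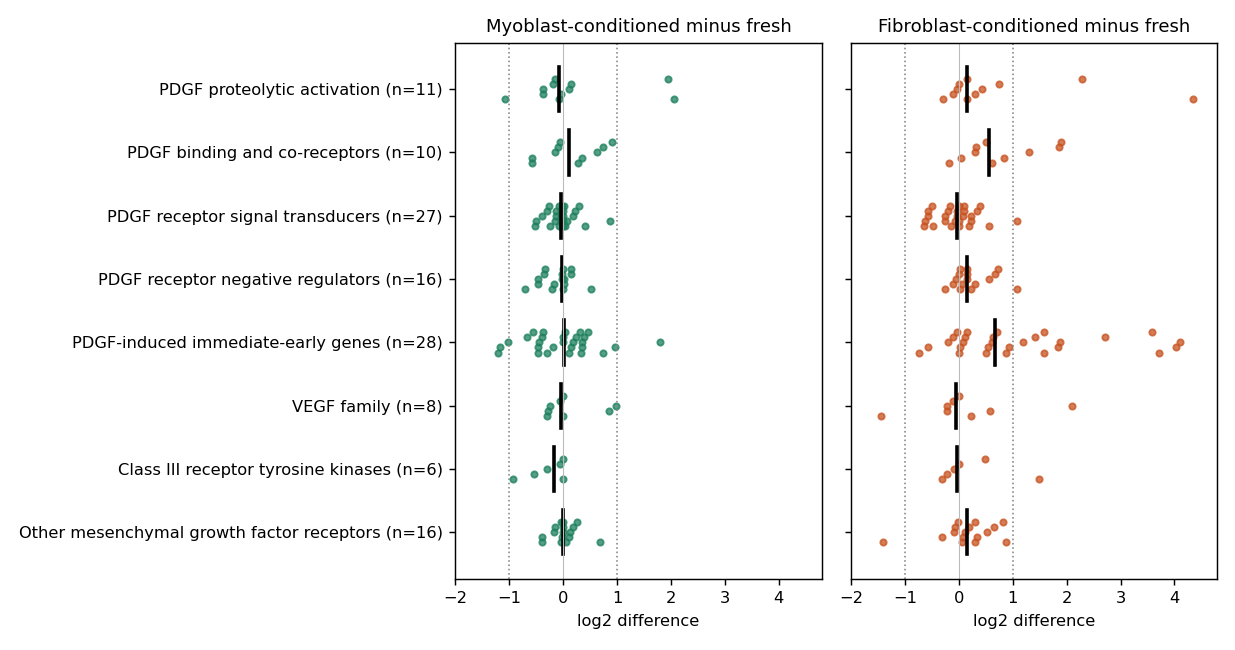
Log2 differences from fresh medium (horizontal axes) of genes in 8 lists around the PDGF receptors, for myoblast-conditioned (left) and fibroblast-conditioned medium (right). Each dot is a gene, black bars are list medians and dotted lines mark 2-fold. The immediate-early list has the widest spread on the right, with 11 of 28 genes past 2-fold and a median of 0.67, and the signal transducers have medians of -0.04 in both.

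Relatives of the PDGF receptors did not repeat the values of Pdgfra. Of 6 measured genes for the other class III receptor kinases and their ligands, 0 passed 2-fold in myoblast medium. In fibroblast medium 1 did, Csf1r, the macrophage colony stimulating factor receptor, at 1.49, where 4.26% of all genes were 2-fold higher. Kit, the stem cell factor receptor, was at 0.00, between blank cells read as 0, and at -0.09. Flt3 was blank on all arrays. Among 8 genes of the VEGF family, whose ligands are related to PDGFs, Vegfc was at 0.85 and 2.09, Vegfa at 0.98 and 0.22 and the endothelial receptor Kdr at -0.30 and -1.44. Of 16 other growth factor receptor genes of mesenchymal and vascular cells, 0 passed 2-fold in myoblast medium. In fibroblast medium 1 did, the angiopoietin receptor Tek at -1.40, where 2.6% of all genes were 2-fold lower. Egfr was at -0.40 and -0.31, Met at -0.01 and 0.06 and Fgfr1 at -0.05 and 0.29. Within these 3 lists no gene had a difference as low as that of Pdgfra in either comparison, though Kdr and Tek came close in fibroblast medium.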

How the data were processed

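RNA was labelled with an Affymetrix 3' IVT kit, per the labels' protocols, and the submitters' processing notes name RMA, without version or settings. The deposited numbers are log2 values, a base inferred from RMA. They are centred by probe set: of 31099, 17117 had values on 2 arrays, always of opposite sign, 8002 on 1, 5980 on none and 0 on 3. Blanks were read as 0. In the dated platform annotation 20832 probe sets had 1 symbol, 436 had more and 9831 had no name here. Entrez IDs gave current RefSeq symbols (assembly GRCr8) for 20764. Probe sets of a gene were averaged, which gave 14218 genes.

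Differences between arrays were counted at 2-fold, with no test. Members and 15 other lists were chosen with earlier results of these data known, and 24 of 256 list entries were not matched. Named genes are all members, list genes (at least the largest each way) and the 3 genes nearest to a member that spanned at least 1. The counting was tested on simulated data. Alternatives changed the summary of probe sets, the probe sets used, the centring and the threshold. The upstream windows leave out bases after the gene start. Python 3.11.15, NumPy 2.4.6, pandas 2.3.3 and Matplotlib 3.10.9 were used.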

Additional observations from a re-analysis of the deposited data

How the results depend on the processing

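No paired analysis was possible because each medium had 1 array, and no array could be left out. Pdgfra stayed past 2-fold lower in both conditioned media under every setting of probe sets and centring tried. It ranged from -1.60 to -1.41 in myoblast and from -1.48 to -1.43 in fibroblast medium. However, settings that choose among probe sets could not move it, nor Pdgfa or Pdgfd, since each has 1 probe set. Pdgfc also has 1, and was dropped when only probe sets with values on 2 arrays were used. The median of the remaining 4 genes was then -0.11 for myoblast minus fresh medium and 0.25 for fibroblast minus fresh medium. Between the conditioned media it was -0.26. With a 3-fold threshold 0 PDGF genes passed in either comparison with fresh medium. With a 1.5-fold threshold 2 passed in fibroblast medium, Pdgfra and Pdgfd, and 1 between the conditioned media, Pdgfd. Shares of all genes past 1.5-fold and 3-fold were not computed. In those comparisons 13.6% and 14.5% of all genes differed at least as far as Pdgfd. Centring each array on the added controls shifted the median of all genes by -0.18 for myoblast minus fresh medium and between the conditioned media, and by 0.00 for fibroblast minus fresh medium, where the 2 kinds of control were offset in opposite directions. It turned Pdgfd from 0.06 to -0.12 for myoblast minus fresh medium and Pdgfra from 0.06 to -0.12 between the conditioned media. Pdgfrb for myoblast minus fresh medium was -0.58 when only its 1379211_at probe set was used, as it was with the widest-range probe set. Of 221 genes of the other lists, 23 passed 2-fold in myoblast medium (8 higher, 15 lower), 46 passed 1.5-fold, 7 passed 3-fold, and 29 (7 higher, 22 lower) passed 2-fold after centring on the controls. Between the conditioned media 58 passed 2-fold, 96 passed 1.5-fold and 37 passed 3-fold. The shares of all genes, at 2-fold only, were 1.35% higher and 0.844% lower in myoblast medium. Between the conditioned media 6.06% passed 2-fold in either direction. How far signals lay above background is unknown, because centring removed the level.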

Other observations

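Pdgfrl, a PDGF receptor-like gene that lies outside the gene list and was singled out after its values were seen, read 0 in fresh medium (blank), -0.38 in myoblast medium and 1.63 in fibroblast medium. Its probe set was 3.09-fold higher in fibroblast than in fresh medium, and 1.77% of all genes were as high or higher. Myoblast medium was lower than fibroblast medium by -2.01. Pdgfrl encodes a secreted protein that resembles the ligand-binding part of the receptors and lacks a kinase.

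Probe sets for different ends of the same transcript, which respond to RNA quality, gave similar differences for GAPDH, from -0.04 to -0.03 for fibroblast minus fresh medium, and for beta-actin, from -0.03 to 0.19. For hexokinase they gave -1.13 at the 5′ end, -0.95 in the middle and -0.28 at the 3′ end in that comparison, and from 0.08 to 0.10 for myoblast minus fresh medium.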
